A study of Mus musculus with 27 samples.

Results

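miR-128 is a brain-enriched microRNA (miRNA) made from a pair of precursor genes, and the files of this series list 3 mature miRNAs from them: miR-128-3p, miR-128-1-5p and miR-128-2-5p. They were taken by name, as all mature miRNAs whose name starts with miR-128-, and are 3 of the 844 miRNAs in the files. Their levels were followed over 27 small-RNA libraries of C57BL/6 mice. Tissue of the suprachiasmatic nucleus (SCN, the central circadian clock of the brain), the hypothalamus and the cortex gave 2 libraries each, and SCN tissue taken at 11 zeitgeber times (ZT, hours from lights on) from ZT2 to ZT42 gave 1 library per time. Neurons of the SCN came as 3 types with 2 libraries for each, namely AVP (vasopressin), VIP (vasoactive intestinal peptide) and CCK (cholecystokinin). LP and CTRL samples of the SCN at CT18 (circadian time 18 h) also had 2 libraries each. The labels name no genotype, treatment agent, age or sex, do not spell out LP (the series description speaks of a light response), and do not say how the neurons were collected, how many animals were pooled or whether replicates came from separate animals. p-values therefore measure the spread between these libraries, which may be technical.

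A miRNA gene is transcribed as part of a longer RNA, cut by Drosha to a hairpin and by Dicer to a short duplex, and 1 strand of that duplex is kept by an Argonaute protein as the guide that finds target mRNAs. In miR-128 the kept strand is the 3p arm, and the 5p arms are the strands that are mostly discarded. In the mouse, miR-128 accumulates in neurons of the postnatal forebrain and limits their excitability, and its loss leads to seizures. Genes inside introns of other genes, as here, are usually transcribed with their host.

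The sequences show why the arms can be told apart and the guide strand cannot. Both genes give the same miR-128-3p, so its reads cannot be assigned to either gene, whereas the 5p arms differ. All 3 names matched a RefSeq entry (GRCm38.p6), and the mature miRNAs read as follows, with the seed at bases 2 to 8, the stretch that pairs with targets, in capitals.
miR-128-3p: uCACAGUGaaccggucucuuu
miR-128-1-5p: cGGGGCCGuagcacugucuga
miR-128-2-5p: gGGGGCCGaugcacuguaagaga

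Over the 21 positions that both 5p arms have, counted from 1 at the 5′ end, they differed at 5 (C1G, U9A, A10U, C18A and U19A, with the miR-128-1-5p base first), and their seeds were identical. The hairpins are shown because they place each arm on its own gene. The mature arms are in capitals, the 5p arm first, and a loop of 14 bases separated them in both.
Mir128-1: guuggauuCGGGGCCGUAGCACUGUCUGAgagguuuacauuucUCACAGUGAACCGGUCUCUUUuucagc
Mir128-2: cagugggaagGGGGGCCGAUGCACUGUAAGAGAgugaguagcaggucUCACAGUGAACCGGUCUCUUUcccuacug

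Mir128-1 lies on the plus strand at chr1:128202361-128202430 (GRCm38) and Mir128-2 on the minus strand at chr9:112118636-112118711. In GENCODE M21, Mir128-1 was intronic in both of the 2 transcripts of R3hdm1 that span it, in intron 19 of 26 of one of them. Mir128-2 was intronic in all 9 spanning transcripts of Arpp21, in intron 19 of 20 of one of them, and in both cases gene and host share the strand. Arpp21 encodes a cAMP-regulated phosphoprotein that binds RNA and is abundant in the forebrain, and R3hdm1 encodes a protein with an R3H domain, a nucleic-acid binding fold. Neither host mRNA was measured in these small-RNA files.

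Among 1679 mature mouse miRNAs of the RefSeq table, 1 had the miR-128-3p seed letters CACAGUG at bases 2 to 8, miR-128-3p itself. The same letters stood 1 base further in, at bases 3 to 9, in miR-27a-3p and miR-27b-3p, which are shown for that overlap (shared letters in capitals) and are compared with miR-128-3p at the end.
miR-27a-3p: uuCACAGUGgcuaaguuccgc
miR-27b-3p: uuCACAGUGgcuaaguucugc

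Those letters also stood at bases 1 to 7 of miR-216a-3p, which did not exceed 6.20 CPM in any library, and at bases 4 to 10 of miR-497b, which the files do not list. The 5p seed GGGGCCG stood at bases 2 to 8 of 2 of the 1679, the 5p arms of miR-128.

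The libraries held 469808 to 5133920 miRNA reads and listed 215 to 635 miRNAs, with the fewest (215 to 312) in the neuron libraries. Levels are given in CPM, the deposited value, scaled to a total of about 1e+07 per library, divided by 10, and each read counts as 1 miRNA whatever its length. A count of 0 reads allows a level of up to 3 reads, which lay between 0.585 and 1.70 CPM in the tissue, time-course and CT18 libraries and between 1.07 and 6.39 CPM in the neuron libraries, and such limits and the intervals below cover counting error only. Neuron libraries contained miR-124-3p, a neuronal miRNA, at 2378 to 13877 CPM, below the 21515 and 24162 CPM of SCN tissue. Vascular marker miRNAs summed to 3.30 to 176.5 CPM there, with 1 to 4 of 5 read, against 3910 to 11818 in the SCN, hypothalamus and cortex libraries. Not every marker sum was lower than in SCN tissue. Oligodendrocyte markers summed to 756.1 to 1249 CPM in VIP neurons against 568.8 to 782.2 in SCN tissue, overlapping. Among them, miR-219-5p had 0 reads in both VIP libraries but was read in both SCN tissue libraries. Erythrocyte markers summed to 2107 to 2164 CPM in AVP neurons, with 1 of 4 read, against 486.2 to 583.1 in SCN tissue. That AVP sum was miR-486-5p alone. The other members, miR-451a, miR-144-3p and miR-144-5p, had 0 reads in both AVP libraries but were read in both SCN tissue libraries. The markers listed here do not define an SCN neuron type. In the tissue libraries, fewer cells of a type and less miRNA per cell cannot be told apart.

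miR-128-3p was the abundant product in nearly every library, and its level spread over 3 orders of magnitude. The cortex held the highest levels, 64648 and 63921 CPM, or 6.46% and 6.39% of all miRNA reads, which made it the 3rd most abundant miRNA of both libraries. Below it came the CT18 libraries, with 14822 and 13716 CPM in LP and 16755 and 12429 CPM in CTRL, and then the hypothalamus with 10840 and 10553 CPM. SCN tissue had 7056 and 8861 CPM, and the 11 time-course libraries ran from 4548 to 10588 CPM with a median of 6094.

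VIP neurons had 3620 and 2369 CPM, CCK neurons 534.8 and 552.5 CPM, and AVP neurons 98.8 and 35.2 CPM. Several neighbours in this order overlapped: the LP and CTRL libraries, the hypothalamus and the top of the time course, and SCN tissue and the time course. Cortex, VIP, CCK and AVP libraries did not overlap with any neighbour. The tissues, the time course, the neurons and the CT18 samples may each be a batch of their own, so no test was made between them; within SCN tissue, the lowest level was 4548 CPM in the time course and the highest 16755 CPM at CT18.

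**Figure D1:**
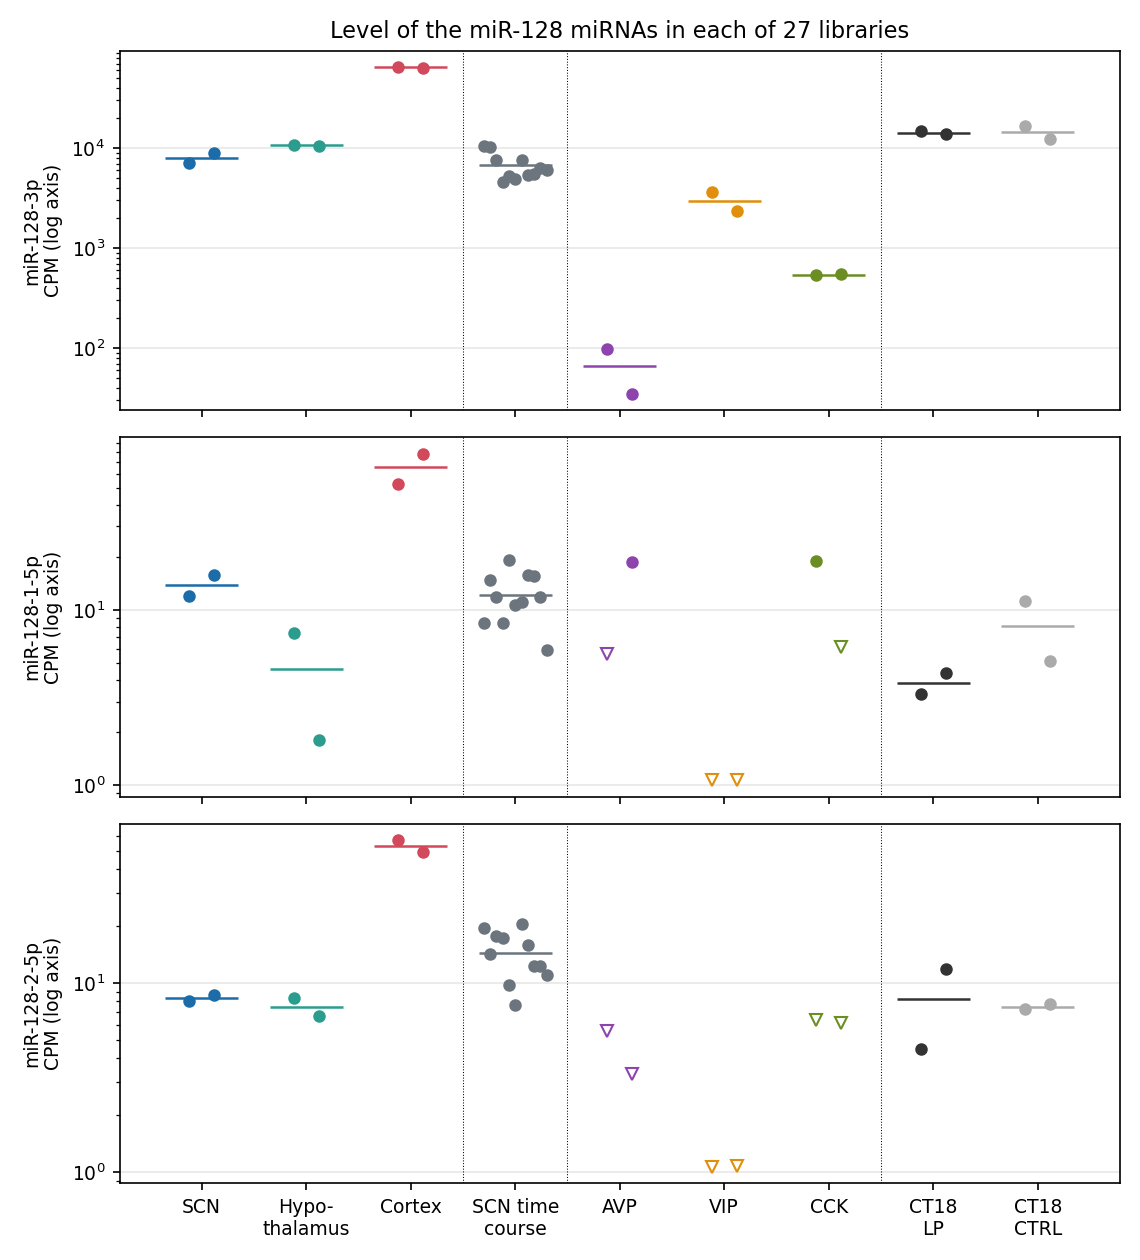
Levels of miR-128-3p, miR-128-1-5p and miR-128-2-5p (rows) in CPM on log axes that differ between rows, 1 filled point per library; horizontal lines are group means where all libraries had reads, and open triangles mark libraries with 0 reads at the limit that 3 reads set. The cortex is highest for all 3, and the AVP libraries are lowest for miR-128-3p, at 98.8 and 35.2 CPM.

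Both 5p arms were rare everywhere. miR-128-1-5p had 12 and 15.9 CPM in SCN tissue and 7.40 and 1.80 CPM in the hypothalamus, the last resting on 4 reads, against 52.3 and 78.1 CPM (132 and 152 reads) in the cortex, its highest levels. In the time course it ran from 5.90 to 19.4 CPM, and at CT18 it was at 3.30 and 4.40 CPM in LP against 11.2 and 5.10 CPM in CTRL. Among the 6 neuron libraries it was read in 1 of 2 AVP libraries (18.7 CPM, 17 reads), in none of the 2 VIP libraries and in 1 of 2 CCK libraries (19.1 CPM, 9 reads).

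miR-128-2-5p had 8 and 8.60 CPM in SCN tissue and 8.30 and 6.70 CPM in the hypothalamus, against 56.6 and 49.3 CPM (143 and 96 reads) in the cortex, where it too was highest. The time course held 7.6 to 20.4 CPM, and CT18 held 4.50 and 11.9 CPM in LP against 7.30 and 7.70 CPM in CTRL. In all 6 neuron libraries it had 0 reads, which allows up to 1.07 to 6.39 CPM, so at this depth a level like that of SCN tissue lies above the limit of each of them, while a lower level may lie below it.

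The 3 tissues were compared to ask where miR-128 is high in the brain regions sampled. All 3 miRNAs were lower in SCN and in hypothalamus than in cortex, by 4.67-fold to 14.2-fold. For miR-128-3p and miR-128-2-5p the SCN and the hypothalamus lay much closer to each other (1.34-fold and 1.11-fold apart). For miR-128-1-5p they were 3.03-fold apart, against 4.67-fold between SCN and cortex. Tests used limma on log2(deposited value + 1), fitted over 378 miRNAs with Benjamini-Hochberg adjustment, and log2 fold changes below are on that scale with standard errors.

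In SCN against cortex, miR-128-3p averaged 7958 ± 1277 CPM in SCN and 64285 ± 513.7 CPM in cortex (SD, n = 2 each), 8.08-fold lower in SCN. Its log2 fold change was -3.02 ± 0.11 (limma, adjusted p = 2.7e-08), the 11th lowest of the 378. miR-128-1-5p averaged 13.9 ± 2.76 CPM in SCN and 65.2 ± 18.2 CPM in cortex, with a log2 fold change of -2.20 ± 0.57 (limma, adjusted p = 0.0056). miR-128-2-5p averaged 8.30 ± 0.42 CPM in SCN and 52.9 ± 5.16 CPM in cortex, a log2 difference of -2.66 ± 0.31. miR-128-3p and miR-128-1-5p were called lower, where 38.9% of all miRNAs tested were called lower, 41.3% higher and 80.2% in either direction. Neither overlapped between the tissues, as was so for 90.2% of all tested. miR-128-2-5p passed the filter on low values (10 CPM in 2 libraries) through its cortex libraries alone, so that it had to be higher in cortex than in the other tissues, and its values against cortex are a description with no test.

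Hypothalamus against cortex gave the same direction. miR-128-3p averaged 10696 ± 202.5 CPM in hypothalamus and 64285 ± 513.7 CPM in cortex (SD, n = 2 each), 6.01-fold lower in hypothalamus, with a log2 fold change of -2.59 ± 0.11 (limma, adjusted p = 1.1e-07). miR-128-1-5p was 14.2-fold lower in hypothalamus, by -4.08 ± 0.57 on the log2 scale (limma, adjusted p = 0.00026), and miR-128-2-5p, again as a description, was 7.06-fold lower, by -2.81 ± 0.31. The log2 fold change of miR-128-1-5p was the lowest of the 378 and that of miR-128-3p the 3rd lowest. In this comparison 16.4% of all tested were called lower, 41.8% higher and 58.2% in either direction. miR-128-3p and miR-128-1-5p did not overlap between these tissues, as was so for 83.9% of all tested. The size for miR-128-1-5p moved with its few hypothalamus reads, from -5.07 without hypothalamus replicate 1 to -3.09 without hypothalamus replicate 2.

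In SCN against hypothalamus the arms were called in different directions, and the difference between arms was not tested here. miR-128-3p was lower in SCN by -0.44 ± 0.11 on the log2 scale (limma, adjusted p = 0.0049), with 7056 and 8861 CPM in SCN against 10840 and 10553 CPM in hypothalamus and no overlap. In this comparison 42.9% of all tested were called lower, 28.0% higher and 70.9% either way, 87.3% did not overlap, and the median of all was -0.29. The call for miR-128-3p depended on the scaling: with median-ratio scaling the difference was -0.18 (adjusted p = 0.25) and with quantile normalization it was 0.24 in the other direction (adjusted p = 0.14).

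miR-128-1-5p was higher in SCN, with 12 and 15.9 CPM in SCN against 7.40 and 1.80 CPM in hypothalamus. Its log2 fold change was 1.88 ± 0.57 (limma, adjusted p = 0.016), and the groups did not overlap. That call did not hold without hypothalamus replicate 2, the library with 4 reads (0.89, adjusted p = 0.057), without SCN replicate 2 (1.68, adjusted p = 0.082) or with no filter (adjusted p = 0.078). Without hypothalamus replicate 1 it was 2.87. miR-128-2-5p had 8 and 8.60 CPM in SCN against 8.30 and 6.70 CPM in hypothalamus, overlapping, with a log2 fold change of 0.15 ± 0.31 (limma, adjusted p = 0.69).

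Median-ratio scaling moved the median of all tested miRNAs by 0.26 in SCN against hypothalamus, by -0.16 in SCN against cortex and by -0.42 in hypothalamus against cortex. Under it miR-128-3p was at -3.19 in SCN against cortex and -3.01 in hypothalamus against cortex, so both stayed past the threshold. Marker miRNAs of other cell types differed between the same tissues. Vascular markers summed to 3910 to 3933 CPM in SCN, 11100 to 11818 in hypothalamus and 11013 to 11550 in cortex, and choroid plexus and ciliated-cell markers to 8663 to 8914 CPM in SCN, 7242 to 7452 in hypothalamus and 1176 to 1337 in cortex. Oligodendrocyte markers summed to 568.8 to 782.2 CPM in SCN, 2650 to 3167 in hypothalamus and 1177 to 1625 in cortex. Their part in the levels of miR-128 was not tested.

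**Figure D2:**
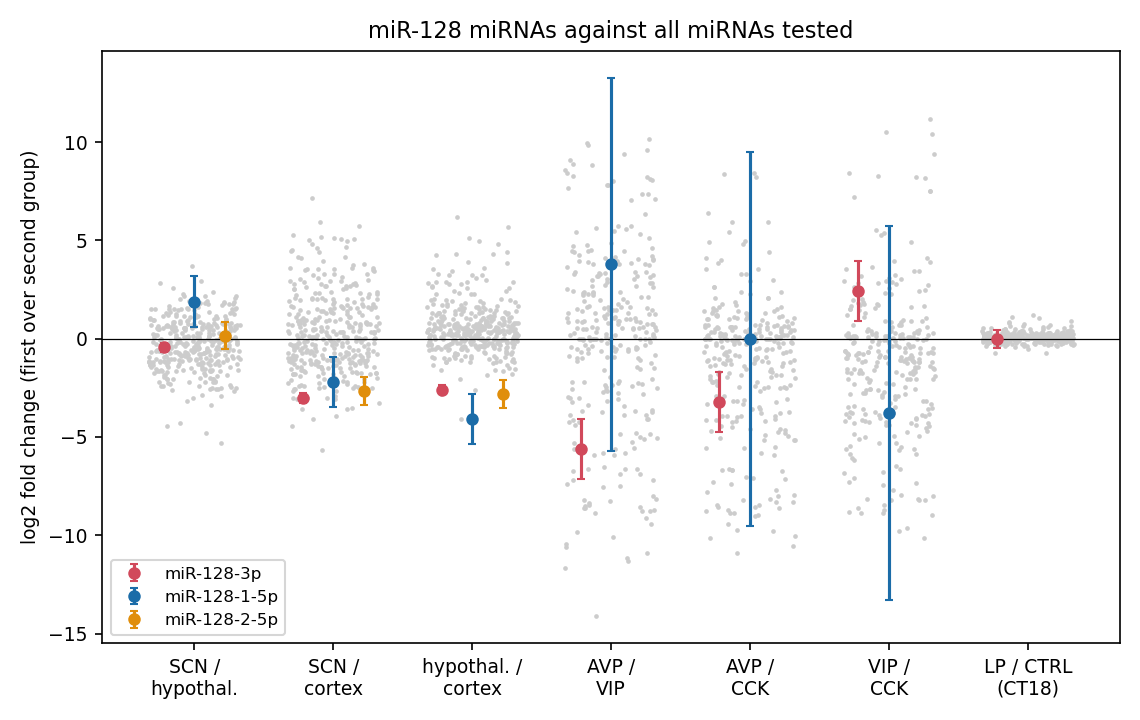
Log2 fold changes (first over second group named, from limma on log2(value + 1)) with 95% confidence intervals for the miR-128 miRNAs in colour, over all miRNAs tested in grey, for 7 comparisons. Against cortex all 3 lie below 0. For miR-128-2-5p this was fixed by the filter, which it passed through its cortex libraries alone, so its values against cortex are a description. In the neurons the miR-128-1-5p intervals are wide because it was read in 2 of 6 libraries.

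Neurons of the SCN were compared by the peptide they are named for. miR-128-3p was lowest in AVP and highest in VIP neurons: AVP neurons averaged 67.0 ± 45.0 CPM, VIP neurons 2994 ± 884.8 CPM and CCK neurons 543.6 ± 12.5 CPM (SD, n = 2 each). The AVP values rest on 53 and 32 reads, which give exact 95% binomial intervals of 73.9 to 129 and 24.1 to 49.7 CPM. VIP neurons had 10168 and 6594 reads and CCK neurons 251 and 269. The 3 groups did not overlap in any pair, and the share of miRNAs without overlap was 64.6% of those tested in AVP against VIP, 58.0% in AVP against CCK and 62.6% in VIP against CCK.

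miR-128-3p was 44.7-fold lower in AVP than in VIP neurons, with a log2 fold change of -5.63 ± 0.58 (limma, adjusted p = 0.0054 over 305 miRNAs), where 14.8% of all tested were called lower and 32.8% in either direction. This difference was -6.37 without AVP replicate 1 and -4.89 without AVP replicate 2, past the threshold in both. It was 8.11-fold lower in AVP than in CCK neurons, by -3.20 ± 0.58 (limma, adjusted p = 0.023), where 14.1% of all tested were called lower, 2.62% higher and 16.7% in either direction. That call did not hold in a model of those 2 groups alone (adjusted p = 0.051), without CCK replicate 1 (adjusted p = 0.13) or without CCK replicate 2 (adjusted p = 0.15), while the difference was -3.94 without AVP replicate 1 and -2.46 without AVP replicate 2.

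miR-128-3p was 5.51-fold higher in VIP than in CCK neurons, by 2.43 ± 0.58 (limma, adjusted p = 0.041), where 8.2% of all tested were called higher and 29.8% in either direction. Leaving out any 1 of the 4 libraries lost that call, with adjusted p = 0.088 to 0.20 and differences of 2.12 to 2.74. It was also lost with no filter on low values (adjusted p = 0.055).

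Median-ratio scaling moved the median of all tested by -0.31 in AVP against VIP, by 0.16 in AVP against CCK and by 0.76 in VIP against CCK, and the median shift of a single miRNA was -0.64, 0.17 and 0.82 in those comparisons. On that scaling miR-128-3p was at -6.28, -3.03 and 3.25 in those comparisons, in the order named, each past the threshold. The 3 neuron comparisons share libraries with one another, so they are not independent. Marker miRNAs of other cell types also differed in their sums. Choroid plexus and ciliated-cell markers summed to 83.8 to 290.0 CPM in AVP, 7564 to 9453 in VIP and 1500 to 1914 in CCK neurons, but 2 of the 7 had reads in each AVP library, 1 and 2 in the VIP libraries and 3 in each CCK library. In VIP replicate 1 the sum was miR-204-5p alone, and miR-211-5p, miR-34b-5p, miR-34c-3p and miR-449a-5p had 0 reads in all 6 neuron libraries. Oligodendrocyte markers summed to 45.1 to 134.3 CPM in AVP, 756.1 to 1249 in VIP and 630.6 to 741.5 in CCK neurons. Of those 3 markers, miR-219-5p had 0 reads in all 6 neuron libraries. The part of these markers in the miR-128-3p levels was not tested.

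miR-128-1-5p gave no call between neuron types: its log2 fold change was 3.78 ± 3.60 in AVP against VIP (limma, adjusted p = 0.46) and -0.02 ± 3.60 in AVP against CCK (limma, adjusted p = 1). It passed the filter through the single AVP and the single CCK library that had reads, and those fitted values rest on libraries at 0. miR-128-2-5p did not pass the filter in the neurons.

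The 5p arms give the only view of the separate genes. The number of miR-128-3p reads per 5p read, both 5p arms summed, was 352 and 361 in SCN, 687 and 1232 in hypothalamus and 593 and 502 in cortex. In this comparison SCN libraries were below those of both other tissues, and the groups did not overlap. On the log2 scale SCN was lower than hypothalamus by a mean difference of -1.37 and lower than cortex by -0.61, and hypothalamus exceeded cortex by 0.75. A two-sided exact permutation test over the 3 groups gave p = 0.067 for any difference, the smallest that 3 groups of 2 libraries allow, so the design could not reach 0.05. In the time course the ratio ran from 170.0 to 376.1, with the highest value at ZT2.

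At CT18 the ratio was 1869 and 839 in LP against 902 and 960 in CTRL, overlapping (mean log2 difference 0.43, two-sided exact permutation p = 1, where 0.33 is the smallest possible). The CT18 samples are SCN too, but all their ratios exceeded those of both cortex libraries (593 and 502). The low SCN ratio of the tissue comparison therefore did not hold across the series, and no test was made between its parts. In the neurons the ratio was far lower where both arms were read. AVP replicate 2 had 32 reads of miR-128-3p and 17 of miR-128-1-5p, a ratio of 1.88, and CCK replicate 1 had 27.9. The other neuron libraries had 0 reads of either 5p arm, so the ratio was at least 17.7 in AVP replicate 1, at least 3389 and 2198 in VIP and at least 89.7 in CCK replicate 2, counting 0 as 3 reads. The AVP libraries therefore did not show the same balance as each other, and no test was made on them.

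miR-128-1-5p made up 60.0% and 64.8% of the miR-128 5p reads in SCN, 47.2% and 21.1% in hypothalamus and 48.0% and 61.3% in cortex. Pooled over libraries, the share was 63.2% of 133 reads in SCN (exact 95% interval 54.4 to 71.4), 38.2% of 55 reads in hypothalamus (25.4 to 52.3) and 54.3% of 523 reads in cortex (49.9 to 58.6). Both SCN libraries exceeded both hypothalamus libraries, by a mean of 28.2 percentage points, whereas SCN and cortex overlapped (7.74 points). The two-sided exact permutation test over the 3 tissues gave p = 0.13, where 0.067 is the smallest possible, so that the design could not have reached 0.05.

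The SCN time course, which is the same tissue, had a pooled share of 45.2% of 1079 reads (42.2 to 48.3, counting error only). Over its 11 libraries the mean share was 45.9% (SD 11.9), and single libraries ran from 30.1% to 66.7%. The share exceeded 50% in 4 of 11 libraries. At CT18 it was 42.9% and 27.1% in LP against 60.6% and 40% in CTRL, overlapping (mean difference -15.3 points, two-sided exact permutation p = 0.67). In the neurons all 17 5p reads of AVP replicate 2 and all 9 of CCK replicate 1 were miR-128-1-5p, a share of 100% with lower exact bounds of 80.5% and 66.4%.

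**Figure D3:**
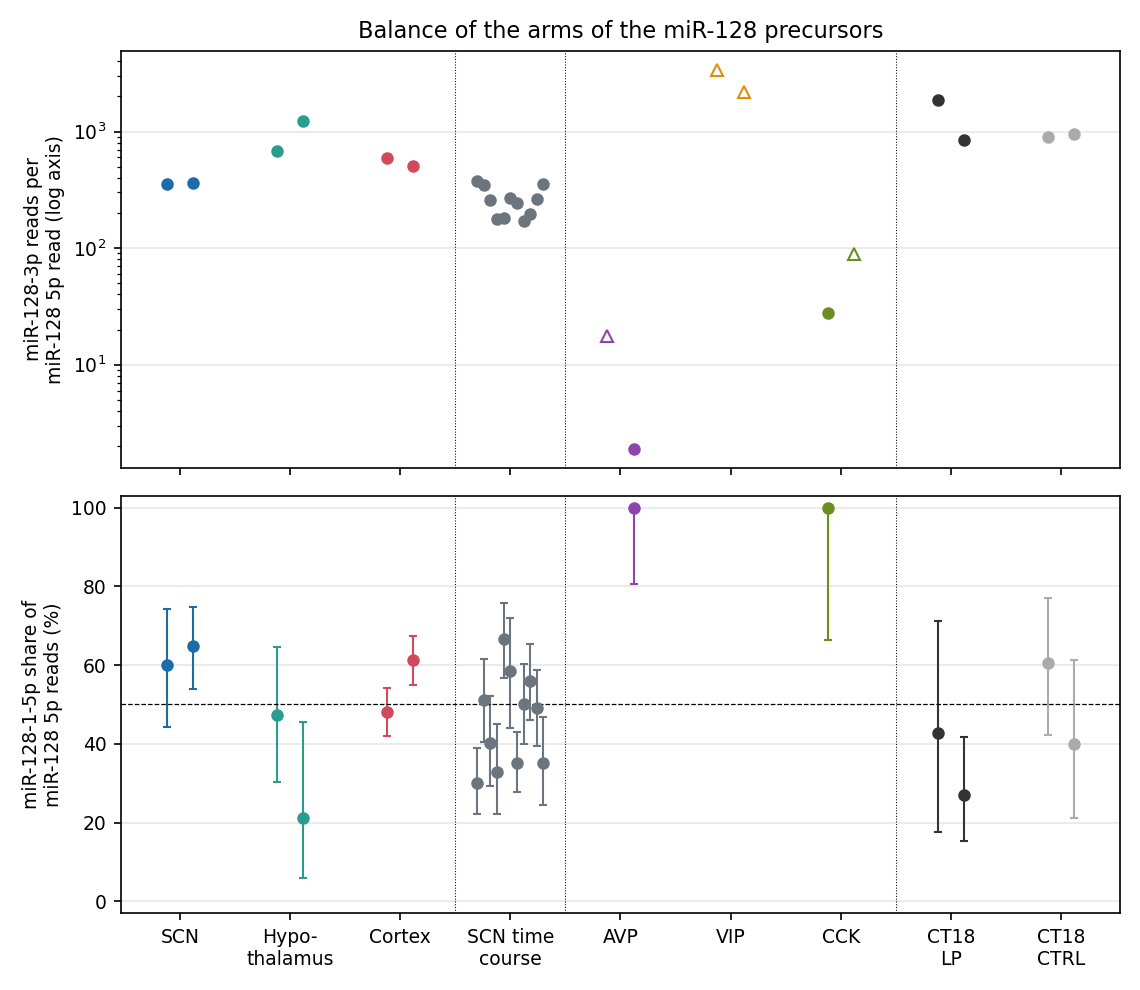
Upper panel: miR-128-3p reads per miR-128 5p read in each library (log axis), with open triangles as lower bounds for libraries with 0 reads of the 5p arms. Lower panel: share of miR-128-1-5p among the 5p reads (%) with exact 95% binomial intervals; the broken line marks 50%, and libraries with no 5p reads are left out. The SCN tissue libraries sit at 352 and 361 in the upper panel, below hypothalamus and cortex, while the CT18 libraries lie above cortex.

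The time course asked whether the SCN levels follow the time of day. miR-128-3p was highest in the first 2 libraries, at 10588 CPM at ZT2 and 10198 at ZT6, then 7645 at ZT10, 4548 at ZT14, 5326 at ZT18 and 4930 at ZT22. On the second day it was at 7641 CPM at ZT26, 5420 at ZT30, 5497 at ZT34, 6375 at ZT38 and 6094 at ZT42. The level at the same clock time differed between the days: the second-day level was 0.72 times the first-day level at ZT26 against ZT2, 0.53 times at ZT30 against ZT6 and 0.72 times at ZT34 against ZT10, and 1.40 and 1.14 times at the remaining pairs of clock times.

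A 24 h cosine fitted to miR-128-3p had an amplitude of 0.32 on the log2 scale and a peak at ZT 4.08 (limma, adjusted p = 0.95). It was 18th of 357 miRNAs by p. Of all 357 tested, 0 (0%) were called rhythmic by limma, and 6 (1.68%) had an unadjusted p under 0.05. With a linear trend beside the cosine, the amplitude was 0.25 and the slope -0.24 per 24 h on the log2 scale (limma, adjusted p = 0.98 for the cosine).

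miR-128-1-5p was highest at ZT18 (19.4 CPM) and lowest at ZT42 (5.90 CPM), the same clock time a day later. Its cosine amplitude was 0.27 (limma, adjusted p = 0.95). miR-128-2-5p was highest at ZT26 (20.4 CPM) and ZT2 (19.6 CPM), again the same clock time, and lowest at ZT22 (7.6 CPM), with an amplitude of 0.37 (limma, adjusted p = 0.95). None of the 3 was called, and whether 1 library per time is enough to detect a rhythm of this size was not tested. The arm ratio (amplitude 0.23, permutation p = 0.50) and the 5p share (amplitude 2.5 points, permutation p = 0.89) were not called over 24 h either.

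**Figure D4:**
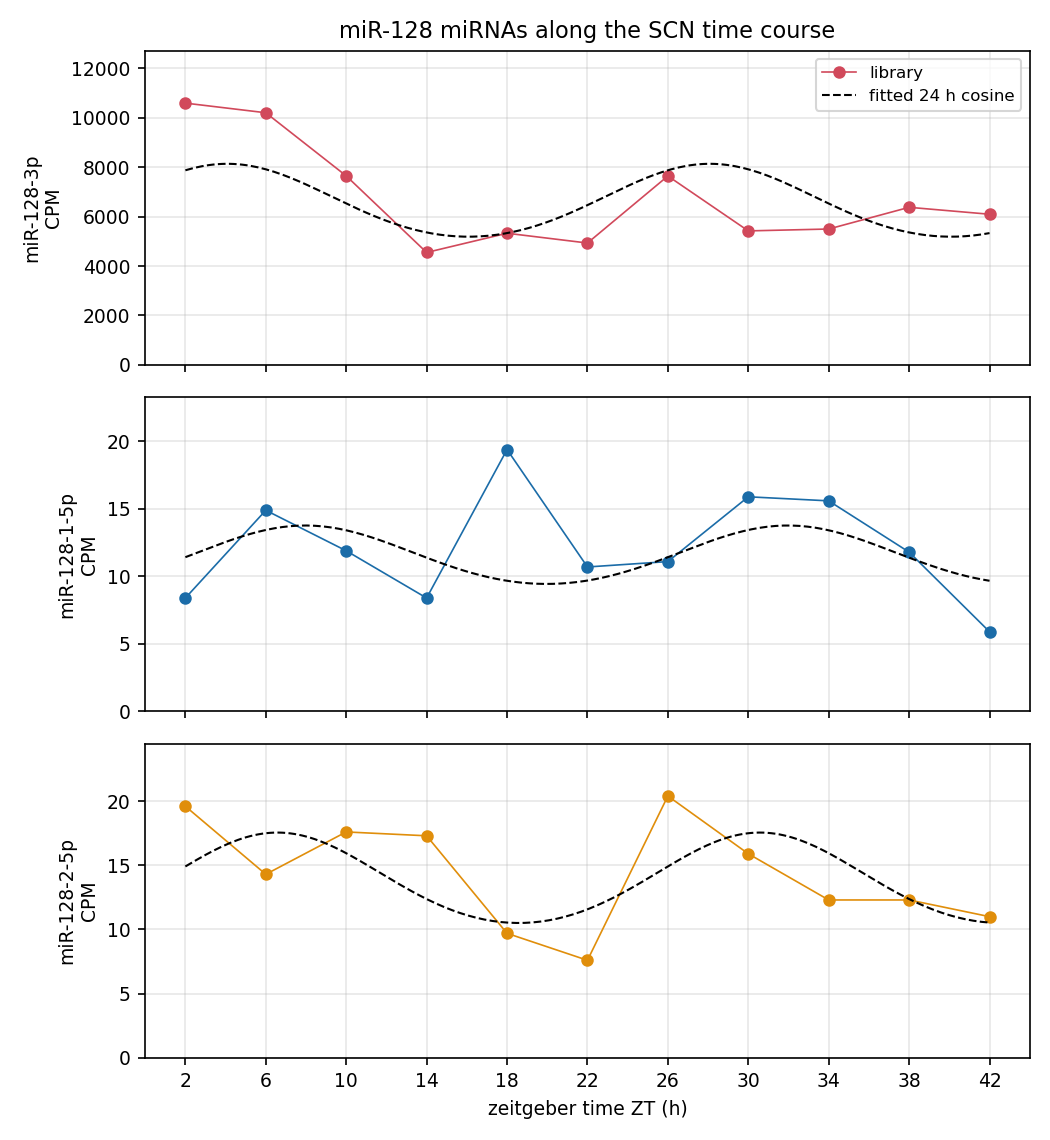
CPM of miR-128-3p, miR-128-1-5p and miR-128-2-5p against zeitgeber time (h), 1 library per point, axes from 0; broken lines are the fitted 24 h cosines. miR-128-3p starts at 10588 CPM at ZT2 and stays at or below 7645 CPM from ZT10 on, and none of the fits passed the test.

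The CT18 comparison asked for a light response. miR-128-3p had 14822 and 13716 CPM in LP against 16755 and 12429 CPM in CTRL, so both LP libraries lay between the CTRL libraries. Its log2 fold change was -0.02 ± 0.19, with a 95% interval of -0.49 to 0.45 (limma, adjusted p = 0.99). Of 317 miRNAs, limma called 0% and 0.315% had an unadjusted p under 0.05, which is 1 miRNA. Without LP replicate 2, 21 miRNAs were called. For miR-128-3p, the test does not exclude a response within its interval. The 5p arms did not pass the filter there and were not tested. miR-128-1-5p had 3.30 and 4.40 CPM (6 and 13 reads) in LP against 11.2 and 5.10 CPM (20 and 10 reads) in CTRL, a mean 2.12-fold lower in LP with no overlap, where 18.6% of the miRNAs tested did not overlap. miR-128-2-5p had 4.50 and 11.9 CPM (8 and 35 reads) in LP against 7.30 and 7.70 CPM (13 and 15 reads) in CTRL, overlapping.

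Other neuronal miRNAs did not share one direction with miR-128-3p. The list held 20 miRNAs found in the files, among them miR-124-3p, miR-9-5p and miR-7a-5p. In SCN against cortex 7 of 19 tested were called higher and 11 lower (41.3% and 38.9% of all miRNAs tested), with a median log2 fold change of -1.03 against 0.06 over all tested, and the 4 with the smallest p were miR-7a-5p (3.58), miR-7b-5p (2.96), miR-433-3p (2.88) and miR-9-5p (-2.46). In hypothalamus against cortex 6 were called higher and 8 lower, against 41.8% and 16.4% of all (median -0.09, all 0.41), led by miR-7a-5p (4.33), miR-7b-5p (3.44), miR-135a-5p (2.26) and miR-124-3p (-1.19). In SCN against hypothalamus 5 were called higher and 11 lower, against 28.0% and 42.9% of all (median -0.48, all -0.29), led by miR-135a-5p (-2.21), miR-9-5p (-1.28), miR-137-3p (-2.54) and miR-433-3p (1.36).

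In AVP against VIP neurons 5 of 20 were called higher and 4 lower, where 18% and 14.8% of all were (median -0.23, all 0.26). Those called higher in AVP were miR-9-5p (4.01), miR-129-2-3p (3.39), miR-129-5p (2.23), miR-433-3p (1.55) and miR-485-5p (1.52), opposite to miR-128-3p. In AVP against CCK 0 were called higher and 5 lower, where 2.62% and 14.1% of all were (median -0.30, all -0.45). In VIP against CCK 0 were called higher and 6 lower, where 8.2% and 21.6% of all were (median -0.87, all -0.93). Members with positive but uncalled values there included miR-9-3p (2.85), miR-212-3p (1.89) and miR-132-3p (1.53). The lower calls against CCK, for AVP and for VIP, each include miR-376a-3p. It had 0 reads in all AVP and VIP libraries and passed the filter through CCK alone (10.6 and 22.5 CPM), so it could only be lower. Several of these counts lie near the shares of all tested. Among the members called lower in AVP than in VIP, miR-135a-5p resembled miR-128-3p in being low in AVP neurons. It had 95.1 and 65.0 CPM in AVP, 495.2 and 560.3 CPM in VIP and 413.3 and 386.1 CPM in CCK neurons. miR-137-3p had 0 reads in both AVP libraries, against 57.6 and 38 CPM in VIP and 44.7 and 43.1 CPM in CCK neurons. miR-124-3p was lower in AVP than in VIP by -2.04 and than in CCK by -1.85, both called. In LP against CTRL and in the 24 h fit, limma called 0 of the 17 and 0 of the 19 members tested, and an unadjusted p under 0.05 was found for 0 and 2 of them. Over all miRNAs tested, the share with an unadjusted p under 0.05 was 0.315% in LP against CTRL and 1.68% in the 24 h fit.

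By correlation on the log2 scale with miR-128-3p over all 27 libraries, the 5 most alike of 313 miRNAs were miR-451a (Pearson r = 0.92), miR-124-3p (0.91), miR-138-5p (0.90), miR-362-5p (0.87) and miR-144-3p (0.86). These libraries differ in kind and depth, with the neuron libraries low for many miRNAs, and the values are a description. Of the miRNAs named, miR-451a and miR-144-3p are erythrocyte markers and had 0 reads in all AVP and CCK libraries. miR-138-5p had 0 reads in both AVP libraries. Their correlations therefore rest in part on values at 0. Over the 6 tissue libraries the 5 most alike of 377 were miR-124-3p (0.998), miR-221-5p (0.997), miR-30a-3p (0.98), miR-128-2-5p (0.98) and miR-151-5p (0.98), while miR-128-1-5p was in place 56 (0.77). miR-128-2-5p passed the filter there through its cortex libraries alone, where miR-128-3p was also highest. Its high correlation was therefore in part fixed by the filter. miR-124-3p was the one miRNA in both sets. It had 21515 and 24162 CPM in SCN, 27193 and 26723 CPM in hypothalamus and 63894 and 58858 CPM in cortex, so that it shared the cortex maximum.

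miR-27b-3p, which carries the seed letters of miR-128-3p 1 base further in, was lowest in the neurons in which miR-128-3p was highest. It had 6606 and 5525 CPM in AVP neurons, 87.5 and 145.8 CPM in VIP neurons and 4943 and 5505 CPM in CCK neurons. All AVP and CCK libraries lay far above both VIP libraries. The log2 fold change was 5.74 ± 0.31 in AVP against VIP (limma, adjusted p = 0.0013), where 18% of all tested were called higher. It was -5.53 ± 0.31 in VIP against CCK (limma, adjusted p = 0.0030), where 21.6% were called lower; without CCK replicate 2 the adjusted p was 0.054. In AVP against CCK it was 0.21 ± 0.31 (limma, adjusted p = 0.71).

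The ratio of miR-128-3p to miR-27b-3p was thus 0.015 and 0.0064 in the AVP libraries, 41.4 and 16.2 in VIP and 0.11 and 0.10 in CCK. miR-27a-3p, at 117.5 and 65.0 CPM in AVP, 1.70 and 2.5 CPM in VIP and 68.1 and 108.8 CPM in CCK neurons, had the order of miR-27b-3p, by 5.34 in AVP against VIP (limma, adjusted p = 0.014) and -5.32 in VIP against CCK (limma, adjusted p = 0.021). Its calls did not hold without AVP replicate 1 or in a model of 2 groups (AVP against VIP, adjusted p = 0.065 and 0.062) or without CCK replicate 1 or 2 (VIP against CCK, adjusted p = 0.14 and 0.15).

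In the tissues both miRNAs were highest in cortex. miR-27b-3p had 9005 and 8924 CPM in SCN, 20727 and 18848 CPM in hypothalamus and 29354 and 30274 CPM in cortex, lower in SCN than in hypothalamus, a direction that for miR-128-3p depended on the scaling. The ratio of miR-128-3p to miR-27b-3p was 0.78 and 0.99 in SCN and 0.52 and 0.56 in hypothalamus, against 2.20 and 2.11 in cortex. Among these 6 libraries miR-128-3p exceeded miR-27b-3p in the cortex alone, but it also did so in SCN tissue at ZT2 (1.09) and ZT6 (1.28), in LP (1.18 and 1.14) and in CTRL (1.39 and 1.02).

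**Figure D5:**
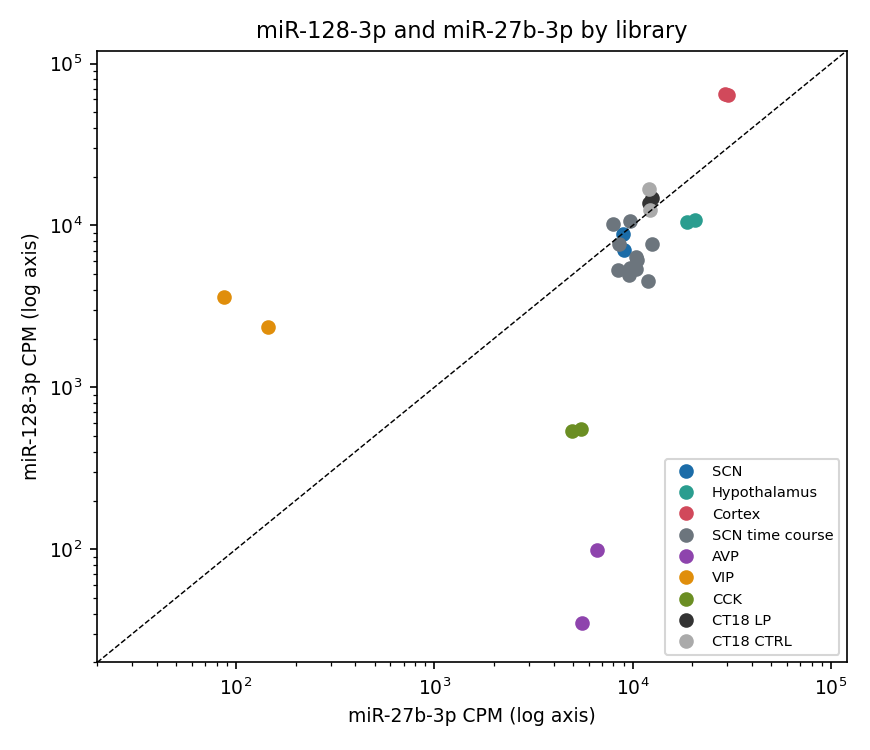
miR-128-3p against miR-27b-3p in CPM (log axes), 1 point per library, with the broken line where they are equal. The AVP and CCK libraries lie below the line and the VIP libraries far above it, with ratios of 0.015 and 0.0064 in AVP against 41.4 and 16.2 in VIP.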

How the data were processed

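Small RNA of 27 samples was sequenced; per the labels' protocols, RNA of frozen tissue was extracted with Trizol and made into Illumina libraries. Bowtie and GRCm38 (mm10) are named per the submitters' processing notes, without version or role, and how multiply mapped reads were counted is not given in the sources used here. Each deposited value is a normalized signal of 1 mature miRNA, a whole number that the authors scaled to about 1e+07 per library, as the values themselves show, and CPM is that value divided by 10. In every library 100% of values equalled a whole multiple of 1 step (1.95 to 21.3) rounded down to a whole number, whereas such multiples are 4.69% (widest step) to 51.3% (narrowest step) of all whole numbers. The step was taken as 1 read, and the reads behind a value, used for arms, intervals and limits, are therefore an estimate. It was right for 100% of 844 miRNAs in 5 simulated libraries, but most files did not pass a stricter test of whole reads, so no count model was used. A miRNA that a file does not list was taken as 0. Replicates of a group differed by more than counting error (chi-square per degree of freedom 13.8 to 554.5).

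As the unit is a normalized signal, limma-trend (limma 3.58.1, R 4.3.3) was fitted to log2(value + 1), with 1 model each for tissues, neurons, CT18 and the time course, for miRNAs with a value of at least 100 (10 CPM) in 2 libraries (3 in the time course). Benjamini-Hochberg adjustment ran over all miRNAs tested, with a threshold of 0.05, two-sided. Rhythm was tested with a 24 h cosine and sine on 8 residual degrees of freedom. Arm ratios and shares were tested by exact permutation of libraries (100000 permutations of times for the time course). Groups came from the labels. Alternatives were another scaling, pseudocount and filter, a replicate block, models of 2 groups and leaving out each library. The members, lists and rules were chosen with earlier results of these data known. The naming rule took all miR-128 miRNAs and the 5 most alike over all libraries (a value of at least 100 in 14) and over tissues. It also took up to 4 list members with the smallest p. Given beside it were miR-216a-3p, miR-497b, further list members named in the neuron comparisons and the repeated values of miR-132-3p, miR-135a-5p, miR-137-3p and miR-124-3p. Names were matched to RefSeq (690 of 844) and hosts taken from GENCODE M21 (GRCm38).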

Additional observations from a re-analysis of the deposited data

How the results depend on the processing

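Alternatives covered 7 limma comparisons, the 24 h fit and the arm measures. For results that answer a comparison, 151 alternative values kept direction and side of the threshold, 10 fell short of it and 6 changed direction. The 151 include arm measures in tissues and at CT18, which could not reach 0.05 and so could not change side. They also include uncalled results that stayed uncalled, so the 151 do not measure how firm the calls are. miR-128-3p in SCN against hypothalamus was -0.18 with median-ratio scaling and 0.24 with quantile normalization. In AVP against CCK it was -3.20 but past no threshold in a model of those groups alone, and -3.945 to -2.46 leaving out 1 library. In VIP against CCK it was 2.43 with no filter and 2.43 with the replicate block, past no threshold in either, and 2.12 to 2.74 leaving out 1 library. In LP against CTRL it was -0.23 to 0.20, the arm ratio there -0.15 to 1.01, and the 24 h amplitude of the 5p share 1.68 to 5.66 points, leaving out 1 library. Results far from the threshold also changed sign: miR-128-2-5p in SCN against hypothalamus was -0.00092 to 0.30 leaving out 1 library, and in AVP against CCK miR-128-1-5p was 0.047 with median-ratio scaling, 0.87 with quantile normalization and -3.81 to 3.76 leaving out 1 library, and miR-27a-3p -0.40 to 0.45. Apart from the construction of each alternative (fewer miRNAs or libraries), the cause was not tested.

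The number of miRNAs called was 303 in SCN against cortex but 186 with a filter at 1000, and 51 in AVP against CCK but 33 with that filter and 0 to 69 leaving out 1 library (0 without either CCK library, 26 without AVP replicate 1). It was 91 in VIP against CCK but 46 with the replicate block and 1 to 65 leaving out 1 library (2 and 1 without CCK replicate 1 and 2, 52 without VIP replicate 2), and 0 in LP against CTRL but 21 without LP replicate 2. Replicate numbers are shared by the groups, but the labels name no shared animal or day, and deviations of same-numbered libraries correlated at -0.089 to 0.25; in the fit with that block the adjusted p in VIP against CCK was 0.056 for miR-128-3p and 0.058 for miR-27a-3p, and no other call on these miRNAs changed. A count model (edgeR, DESeq2) was not run, since the deposited unit is a normalized signal. miR-128-2-5p could not be tested without either cortex library. Depth limits the 5p arms most, which had 0 to 20 reads in neurons and at CT18 in all but 1 library, and 2 libraries per group limit every test.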
